A study of Mus musculus with 4 samples.

Results

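Rsad2, Cmpk2, Usp18, Ifi44, Ifih1, Xaf1 and Zbp1 are 7 interferon-stimulated genes, among them antiviral effectors, sensors of foreign nucleic acid and a brake on the interferon response. Their accessible chromatin was examined in mouse bone marrow-derived macrophages by ATAC-seq, which tags open DNA by transposase insertion. Peaks of the 4 libraries were merged into regions wherever they overlapped by at least 1 bp. A region was given to the gene when it lay inside it or within 50 kb of it and no other protein-coding gene was nearer. This gave 29 regions for the 7 genes, out of 91858 regions in all, of which 80446 could be assigned to a protein-coding gene.

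The Ezh2 KO macrophages came from Ezh2fl/fl;LysM-Cre+/- mice, in which Cre is expressed in myeloid cells, and the WT macrophages came from their littermate controls, whose flox and Cre alleles are not given in the labels. Ezh2 is the catalytic subunit of Polycomb repressive complex 2, which methylates lysine 27 of histone H3. Marrow was grown for 7 to 10 days with L929 cell medium, a source of macrophage colony-stimulating factor, and all macrophages of both genotypes were then exposed for 24 hours to Hepa1-6 conditioned medium. Hepa1-6 is a hepatoma cell line of the mouse, and macrophages without this medium were not analysed here. Each genotype had 2 libraries, and the age and sex of the mice are not given in the labels. No label ties a replicate to its own mouse or culture, so SDs and p-values measure only the spread between these libraries, which may be technical.

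The lists held 67055 and 71111 peaks in Ezh2 KO and 69210 and 72887 peaks in WT, and the sequencing depth is unknown because the files give no reads. All 12 macrophage markers examined, among them Spi1, Csf1r and Adgre1, showed a region within 1 kb of a gene end in every library, as did 4 of 21 markers of other cell types, S100a8, Flt3 and Col1a1 among them. A region called in every library anywhere inside the gene or within 50 kb was found for 12 of the 12 and for 17 of the 21. The Ezh2 gene had 7 regions, 4 of them called in every library, and a peak list cannot show whether the floxed exons are gone. Open chromatin at a gene was measured here, not its RNA.

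Type I interferon binds the receptor IFNAR, and the kinases JAK1 and TYK2 then activate transcription factors that bind the interferon-stimulated response element (ISRE) in the promoters of responsive genes. Macrophages carry a low level of this signalling at rest and amplify it when they sense viral or cytosolic nucleic acid. The core of the ISRE is a pair of GAAA half-sites, written GAAANNGAAA, or TTTCNNTTTC when read on the other strand.

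RefSeq start sites on GRCm38.p6, the assembly behind mm10, were at hand for 5 of the 7 genes. Their upstream sequences are shown for the paired half-sites, whose overlap with peaks is given after them. Cmpk2, which has no such pair, stands beside its neighbour Rsad2. The stretches are the 150 bases before the start site of Rsad2 (chr12:26456453-26456602, minus strand), Cmpk2 (chr12:26469065-26469214, plus strand), Ifi44 (chr3:151749911-151750060, minus strand), Ifih1 (chr2:62646256-62646405, minus strand) and Xaf1 (chr11:72301479-72301628, plus strand). For Ifih1 (chr2:62646206-62646229) and Xaf1 (chr11:72301633-72301662) a short stretch just after the start site follows. The start sites of Cmpk2 (26469215) and Xaf1 (72301629) lay inside the gene spans, which begin at 26469117 and 72301461. The 150 bases before these start sites thus lie partly (Cmpk2) or wholly (Xaf1) inside the gene span. Capitals mark GAAA pairs on either strand with 1, 2 or 3 bases between them, which overlap each other in Ifi44.
Rsad2: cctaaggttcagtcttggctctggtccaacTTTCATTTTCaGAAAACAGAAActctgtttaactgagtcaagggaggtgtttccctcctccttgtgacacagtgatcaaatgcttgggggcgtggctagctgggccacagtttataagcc
Cmpk2: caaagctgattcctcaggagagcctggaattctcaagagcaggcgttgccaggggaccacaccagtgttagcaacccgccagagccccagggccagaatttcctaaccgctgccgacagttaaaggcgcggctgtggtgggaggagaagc
Ifi44: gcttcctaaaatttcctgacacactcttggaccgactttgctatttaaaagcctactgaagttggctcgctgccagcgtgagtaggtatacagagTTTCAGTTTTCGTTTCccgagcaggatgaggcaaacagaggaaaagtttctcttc
Ifih1: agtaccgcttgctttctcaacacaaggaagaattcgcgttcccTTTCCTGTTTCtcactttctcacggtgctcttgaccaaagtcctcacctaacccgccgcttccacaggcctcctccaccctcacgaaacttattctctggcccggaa
Xaf1: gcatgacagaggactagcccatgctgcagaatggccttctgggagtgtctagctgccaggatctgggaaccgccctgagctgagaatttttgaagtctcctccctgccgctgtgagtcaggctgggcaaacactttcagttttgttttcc
Ifih1 after the start: agaatcGAAACAGAAAccgatctg
Xaf1 after the start: tgcaaaGAAACGAAActccacagaagcact

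The ISRE core GAAANNGAAA stood in 2 of the 5 start windows of 300 bases (250 before and 50 after the start site), those of Rsad2 and Ifih1. It stood in 3.35% of all 21262 protein-coding start windows, and in 30 of 51 windows of 41 other interferon-stimulated genes. With 1 base between the half-sites (GAAANGAAA) Ifi44 and Xaf1 matched, against 2.85% of all windows, and with 3 bases (GAAANNNGAAA) Rsad2, Ifi44 and Ifih1 matched, against 2.60%. A pair at any of the 3 spacings stood in 4 of the 5 windows (not in Cmpk2), against 8.07% of all windows and 36 of the 51. The spacings of 1 and 3 bases were chosen after the sequences had been seen. The PU.1 core GAGGAAG matched in Ifih1 alone and the TATA box TATAAA in Rsad2 alone (on the strand opposite to the gene), against 13.6% and 12.6% of all windows. A match describes the letters and does not show that a factor binds, and motifs were searched on both strands.

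Peaks of all 4 libraries overlapped the start window at Rsad2, Cmpk2, Ifih1 and Xaf1, and at Ifi44 they did so only in replicate 2 of each genotype. Over all protein-coding start windows, 48.8% were overlapped in all 4 libraries. The paired half-sites of Rsad2, Ifih1 and Xaf1 lay wholly under a peak in every library. Those of Ifi44 lay under a peak in KO replicate 2 and WT replicate 2 and under none in KO replicate 1 and WT replicate 1, which are the libraries with fewer peaks in each genotype.

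**Figure D1:**
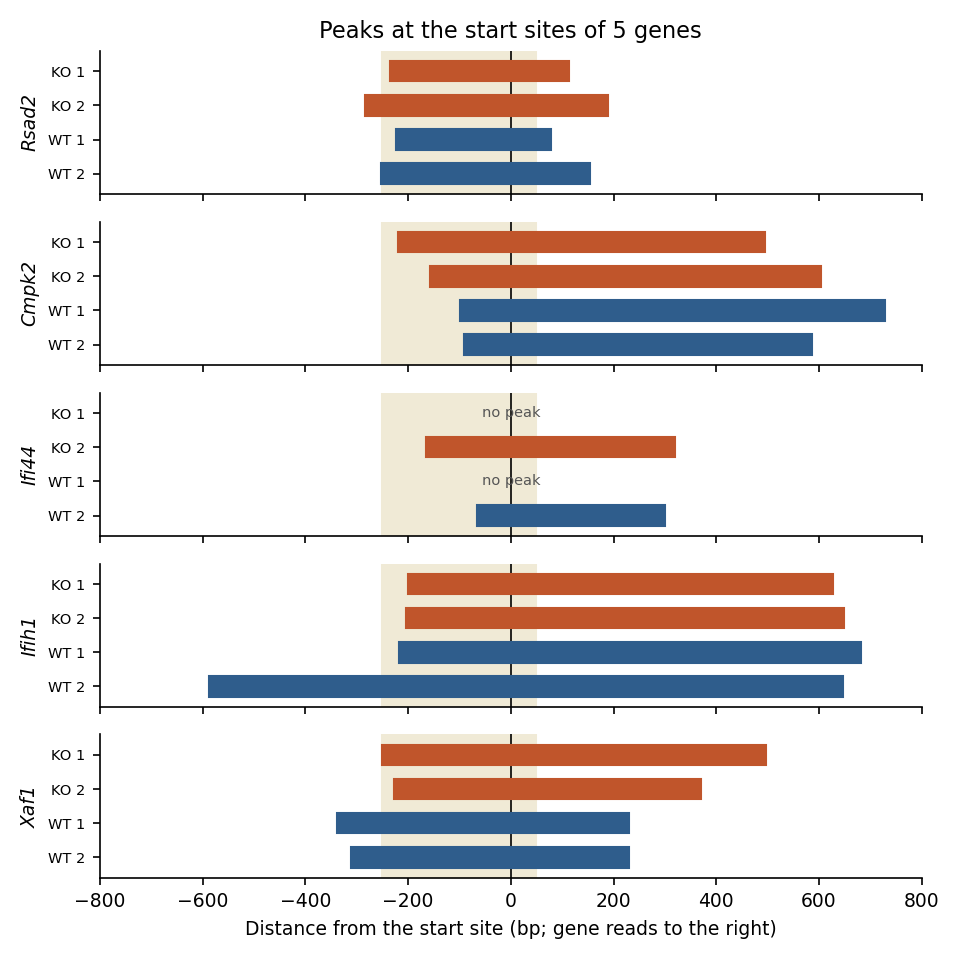
Each bar is the peak that overlaps the start window of a gene in a library, drawn by its distance in bp from the start site, with Ezh2 KO libraries (orange) above WT libraries (blue). The shaded band is the window from 250 bp before to 50 bp after the start, and the plot shows the missing Ifi44 peaks in replicate 1 of both genotypes and, at Cmpk2, Ifih1 and Xaf1, upstream peak edges whose positions do not overlap between genotypes.

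A peak in every library was found at 18 of the 29 regions (62.1%), where the share over the assigned regions of the genome was 59.6%. None was called in both Ezh2 KO libraries and no WT library, a pattern found in 1.44% of assigned regions, and none in both WT libraries and no KO library, found in 1.94%. The 18 shared regions were 6 at a gene end, 6 inside a gene and 6 outside, and they spanned 195 to 1420 bp. The 11 others spanned 110 to 486 bp, with a median of 161 bp, against 581 bp for the shared regions.

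Calls at these genes were fewer in Ezh2 KO than in WT libraries. Ezh2 KO replicates 1 and 2 called 21 and 22 of the 29 regions, against 25 and 26 in WT replicates 1 and 2. The groups did not overlap, but the smallest two-sided exact p that 2 libraries against 2 can give is 0.333. In percent, the KO libraries called 72.4 and 75.9 and the WT libraries 86.2 and 89.7 of these regions, against 73.5 and 78.0 in KO and 75.7 and 79.6 in WT over all assigned regions. All 4 member regions called in 3 libraries lacked a KO call, which holds for 56.3% of such regions genome-wide, and all 4 called in a single library were WT calls, which holds for 53.8% genome-wide. These 8 regions, in Rsad2, Cmpk2, Ifi44, Ifih1 and Zbp1, spanned 110 to 363 bp. They make up the whole difference in calls and are not a further result beside it. Their median percentile by fold enrichment within their lists was 29.0, against 63.7 for calls in the 18 shared regions. With the weakest 25% of each list left out, KO libraries called 20 and 18 and WT libraries 19 and 23 of the remaining regions, and the genotypes overlapped. With the weakest 50% left out, KO libraries called 11 and 10 and WT libraries 16 and 16, and the genotypes did not overlap. The pattern was noticed after the values had been seen, and its relation to depth was not tested.

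**Figure D2:**
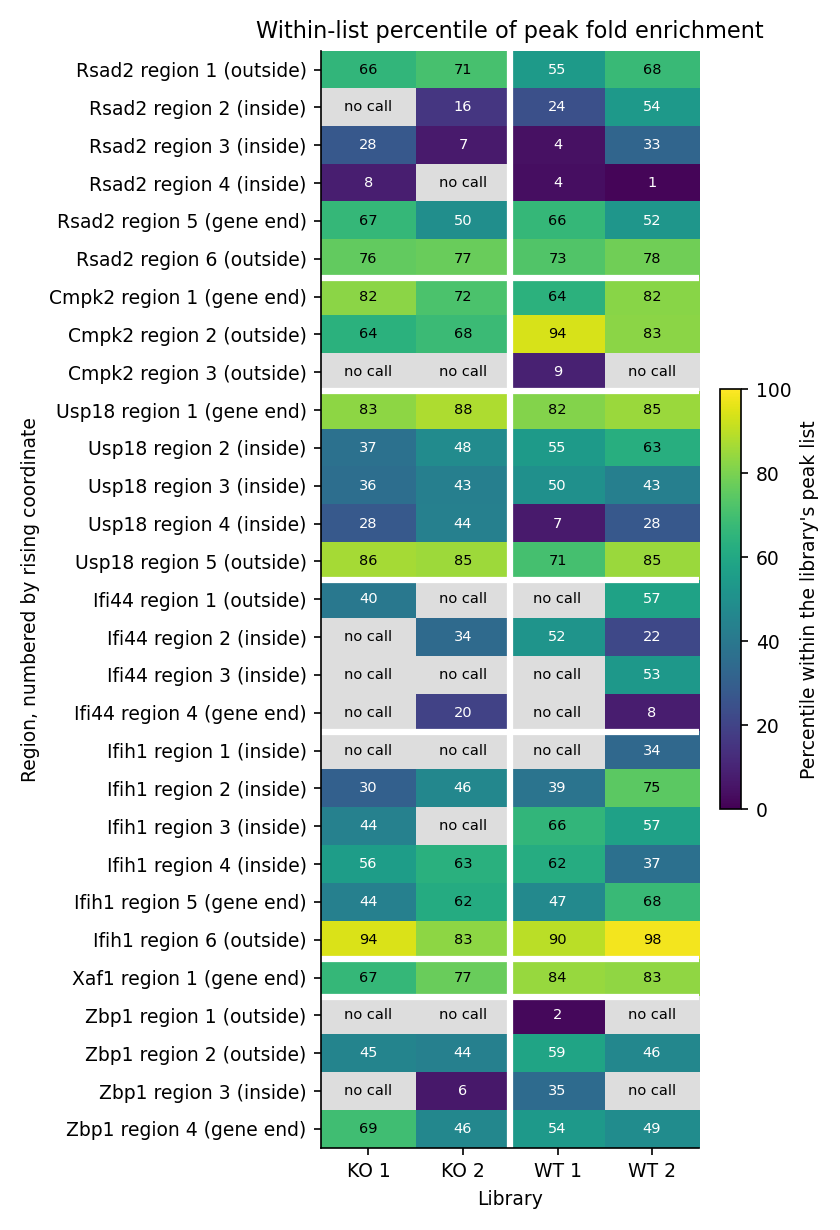
Each row is 1 of the 29 regions, numbered within its gene by rising coordinate, and each column a library, with Ezh2 KO on the left and WT on the right. Colour and number give the percentile of the peak's fold enrichment among all peaks of that library, and grey cells marked no call have no peak. All 5 Usp18 regions are filled in every library, and no Ifi44 region is.

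Ifih1 encodes MDA5, the cytosolic sensor of long double-stranded RNA that signals through MAVS. The gene (chromosome 2, 62595618 to 62646255) held 6 regions, 4 of them with a peak in every library. By mean percentile of fold enrichment, the strongest of all regions of these genes lay 8359 bp outside the gene on its upstream side (62654614 to 62654980). Its deposited fold enrichments were 7.96 and 6.30 in KO and 6.90 and 8.42 in WT. Within their lists these peaks stood at percentiles 94.4 and 83.0 in KO and 89.7 and 98.3 in WT, and the genotypes overlapped. In KO replicate 2 a Usp18 region stood higher (87.7), and in WT replicate 1 a Cmpk2 region did (93.8). The percentile is the share of a library's own peaks with an equal or lower fold enrichment, a value of the authors that was used only to rank peaks within a list. At the start of Ifih1 (62645573 to 62646842) the peaks covered 829 and 853 bp in KO and 900 and 1234 bp in WT. The KO widths lay below both WT widths, but WT replicate 2 stood apart. The peaks began 201 and 203 bp before the start site in KO and 217 and 587 bp before it in WT. These edges did not overlap, with both KO edges nearer to the start site, as in 14.2% of the start windows that had a peak in every library. The difference in log2 width was -0.31 ± 0.17 (SE, limma, adjusted p = 0.971), with an interval from -0.74 to 0.12. Inside the gene, a region of 195 bp (62630561 to 62630755) had nearly the same width in every library, at 185 and 181 bp in KO and 179 and 178 bp in WT. Another inside region (62643468 to 62643805) covered 333 and 142 bp in KO and 214 and 314 bp in WT, with more spread between replicates than between genotypes. A further inside region (62635404 to 62635564) had a peak of 120 bp in KO replicate 1, none in KO replicate 2, and peaks of 156 and 161 bp in WT.

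Zbp1 encodes a sensor of Z-form nucleic acid that can start necroptosis through RIPK3 and MLKL. The gene (chromosome 2, 173206612 to 173218959) had 4 regions, and 2 of them were called in all libraries. The region at its higher-coordinate end was the widest of these genes, with a span of 1420 bp (173218525 to 173219944). Its peaks covered 932 and 1377 bp in KO and 1205 and 1372 bp in WT, with KO replicate 1 split into 2 peaks, and the genotypes overlapped. A region 19717 bp beyond the lower-coordinate end (173186298 to 173186895) was covered over 466 and 556 bp in KO and 204 and 465 bp in WT. Its log2 width difference of 0.74 ± 0.41 (SE, limma, adjusted p = 0.971) was the largest positive one of the 18, and the WT libraries differed from each other by more than KO from WT replicate 2. Its percentiles ran the other way, at 45.1 and 43.7 in KO and 58.5 and 46.3 in WT. Inside Zbp1, a region of 317 bp was called in KO replicate 2 and WT replicate 1 only.

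Rsad2 encodes viperin, a radical SAM enzyme that turns CTP into a chain-terminating nucleotide. Cmpk2 encodes a mitochondrial nucleotide kinase, and the pair are neighbours on chromosome 12, transcribed away from each other. Rsad2 (26442743 to 26456452) and Cmpk2 (26469117 to 26479837) are separated by 12664 bp. At the Rsad2 start site (26456262 to 26456735) the peaks covered 351 and 474 bp in KO and 303 and 409 bp in WT. They stood at percentiles 66.8 and 49.6 in KO and 66.5 and 52.4 in WT, so that libraries of the same replicate number were closer to each other than those of the same genotype. Between the genes, 3447 bp upstream of Rsad2, a region of 564 bp (26459899 to 26460462) was covered over 389 and 564 bp in KO and 486 and 437 bp in WT. Its percentiles of 76.1 and 77.0 in KO and 72.7 and 78.2 in WT put it above the start site of Rsad2 in every library. Beyond the other end of Rsad2, a region of 681 bp (26439278 to 26439958) was also called throughout, over 653 and 558 bp in KO and 671 and 468 bp in WT.

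Inside Rsad2, 3 regions were called, 2 of which each lacked a call in a KO library. The region called throughout (26449582 to 26449904) covered 119 and 163 bp in KO and 127 and 290 bp in WT, at percentiles of 27.7 and 7.33 in KO and 4.42 and 32.7 in WT. One of the others (26444156 to 26444310) had a peak of 154 bp in KO replicate 2, none in KO replicate 1, and 136 and 138 bp in WT. Its percentiles were 15.7 in KO and 24.4 and 53.7 in WT, the last of these above the Rsad2 start site in the same library. The remaining one (26452985 to 26453191) had a peak of 159 bp in KO replicate 1, none in KO replicate 2, and 162 and 126 bp in WT. The percentiles of this last region were 8.24 in KO and 3.72 and 1.18 in WT, close to the bottom of the lists.

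**Figure D3:**
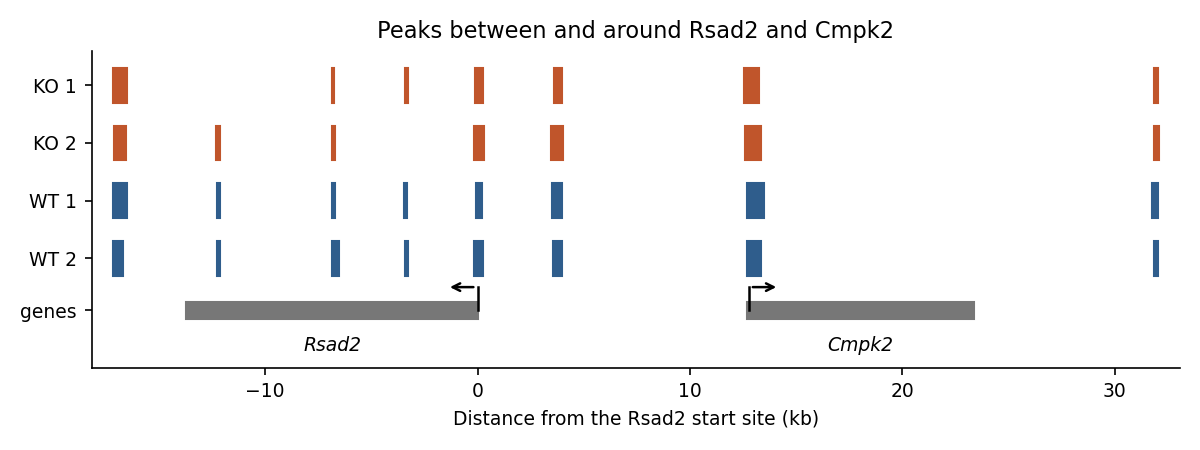
Peaks of each library (Ezh2 KO above WT) are drawn to scale along the Rsad2 and Cmpk2 neighbourhood by their distance in kb from the Rsad2 start site, with the gene spans in grey and arrows for the direction of transcription. The region between the genes and both start sites had a peak in all 4 libraries, and 2 of the 3 narrow regions inside Rsad2 had no peak in 1 KO library each.

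At the Cmpk2 start site (26468996 to 26469944) the peaks covered 714 and 762 bp in KO and 828 and 680 bp in WT, and total width overlapped between genotypes. The upstream edges did not overlap: the peaks began 219 and 157 bp before the start site in KO and 98 and 92 bp before it in WT. A region 8390 bp past the gene (26488227 to 26488518) had fold enrichments of 5.20 and 5.28 in KO and 7.47 and 6.09 in WT. Its percentiles of 63.9 and 68.2 in KO lay below those of 93.8 and 82.8 in WT, while its widths of 197 and 215 bp in KO and 259 and 194 bp in WT overlapped. Of the 10371 start windows overlapped in every library, 16.0% had both KO upstream edges farther out than both WT edges. Peak edges were compared after the values had been seen and were given no test.

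Usp18 encodes a protease that removes ISG15 from proteins and also damps signalling at the IFNAR2 chain of the interferon receptor. The gene (chromosome 6, 121245906 to 121270917) had all 5 of its regions called in all 4 libraries, as did Xaf1 with its single region. The region at its lower-coordinate end (121245330 to 121246184) covered 855 and 734 bp in KO and 770 and 586 bp in WT, at percentiles of 83.0 and 87.7 in KO and 81.5 and 85.0 in WT. A region 967 bp beyond the other end (121271884 to 121272812) covered 736 and 913 bp in KO and 891 and 921 bp in WT. Its percentiles were 86.5 and 85.3 in KO and 70.6 and 85.0 in WT, higher in both KO libraries but close to WT replicate 2. Inside the gene, the region at 121251194 to 121251807 covered 530 and 361 bp in KO and 412 and 303 bp in WT, and its percentiles of 37.4 and 48.2 in KO lay below those of 54.6 and 62.5 in WT.

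A narrow region inside Usp18 (121260545 to 121260820) had the largest width difference of the 18. Its peaks measured 115 and 118 bp in KO and 269 and 272 bp in WT, so that the replicates of each genotype differed by 3 bp. The log2 difference was -1.20 (95% interval -1.80 to -0.61), which is 2.30-fold narrower in KO, with a limma adjusted p = 0.620 over all 53062 shared regions. This region was singled out after its values were seen, and its percentiles of 36.1 and 43.2 in KO and 50.1 and 43.1 in WT overlapped. The next region inside the gene (121261428 to 121261682) covered 232 and 120 bp in KO and 255 and 125 bp in WT, with widths closer between libraries of the same replicate number than within a genotype. Its percentiles of 28.0 and 43.7 in KO lay above those of 7.17 and 27.5 in WT.

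Ifi44 (chromosome 3, 151730922 to 151749910) was the only gene of the 7 with no region called in all libraries. Its start site region (151749590 to 151750075) measured 486 bp in KO replicate 2 and 368 bp in WT replicate 2. The peaks stood at percentiles of 19.5 in KO and 8.19 in WT, low in both lists. The other 3 regions spanned 145 to 176 bp. The strongest by mean percentile over the libraries with a call (151746137 to 151746281) lay inside the gene. It was called in WT replicate 2 alone, at percentile 53.4. A region 14384 bp outside the gene (151716391 to 151716538) stood higher in that library, at percentile 57.4, and was also called in KO replicate 1 at percentile 40.1. The last one, inside the gene (151739729 to 151739904), was called in all libraries but KO replicate 1, at 122 bp in KO and 176 and 116 bp in WT. Its percentiles were 34.5 in KO and 51.6 and 21.8 in WT.

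Xaf1 encodes a factor that binds the apoptosis inhibitor XIAP and favours cell death. The gene (chromosome 11, 72301461 to 72313733) had a single region, at its start site (72301291 to 72302125), called in all 4 libraries. Its peaks covered 748 and 599 bp in KO and 569 and 542 bp in WT, wider in both KO libraries before centring. After centring the widths overlapped, and the log2 difference was 0.28 ± 0.20 (SE, limma, adjusted p = 0.971). The peaks reached 496 and 370 bp past the start site in KO and 230 and 230 bp past it in WT, and began 251 and 228 bp before it in KO and 338 and 311 bp before it in WT. Over all windows overlapped in every library, 17.0% had both KO downstream edges farther out than both WT edges, and 14.2% had both KO upstream edges nearer. Of the 4 members with such a window (Rsad2, Cmpk2, Ifih1 and Xaf1), 0 had both KO downstream edges nearer than both WT edges, against 13.7% of these windows. Percentiles of 66.7 and 77.0 in KO lay below those of 84.5 and 83.3 in WT.

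Among the 18 shared regions, both KO percentiles lay above both WT percentiles in 2 (both at Usp18) and below them in 4 (at Cmpk2, Usp18, Xaf1 and Zbp1). Over all assigned shared regions these shares were 17.0% and 17.9%, and 2 and 4 of 18 do not stand out from them. After centring of the libraries on their median width, both KO widths lay above both WT widths in 1 member region (Zbp1) and below in 3 (2 at Usp18 and the start of Ifih1). The shares over all 53062 shared regions were 16.8% and 15.5%.

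No member region passed the test of width. With limma and Benjamini-Hochberg adjustment over 53062 regions at 0.05, 0 of 18 were broader and 0 narrower in KO, as for all regions (0% in both directions). At an unadjusted p under 0.05 there were 1 of the 18 (the narrow one inside Usp18) and 5.20% of all regions. The median log2 difference was -0.049 over the 18 regions, 0.017 over 116 shared regions of other interferon-stimulated genes and 0.0098 over all assigned shared regions. Simulated data of this size were given 1 common spread, taken from the median over regions. There, width changes of 1 on the log2 scale were found in 72% of changed regions and changes of 2 in 100%. Spread was not equal among the real regions, so these shares do not show how often the test would find such changes there. A region that missed the threshold is not shown to have equal width.

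**Figure D4:**
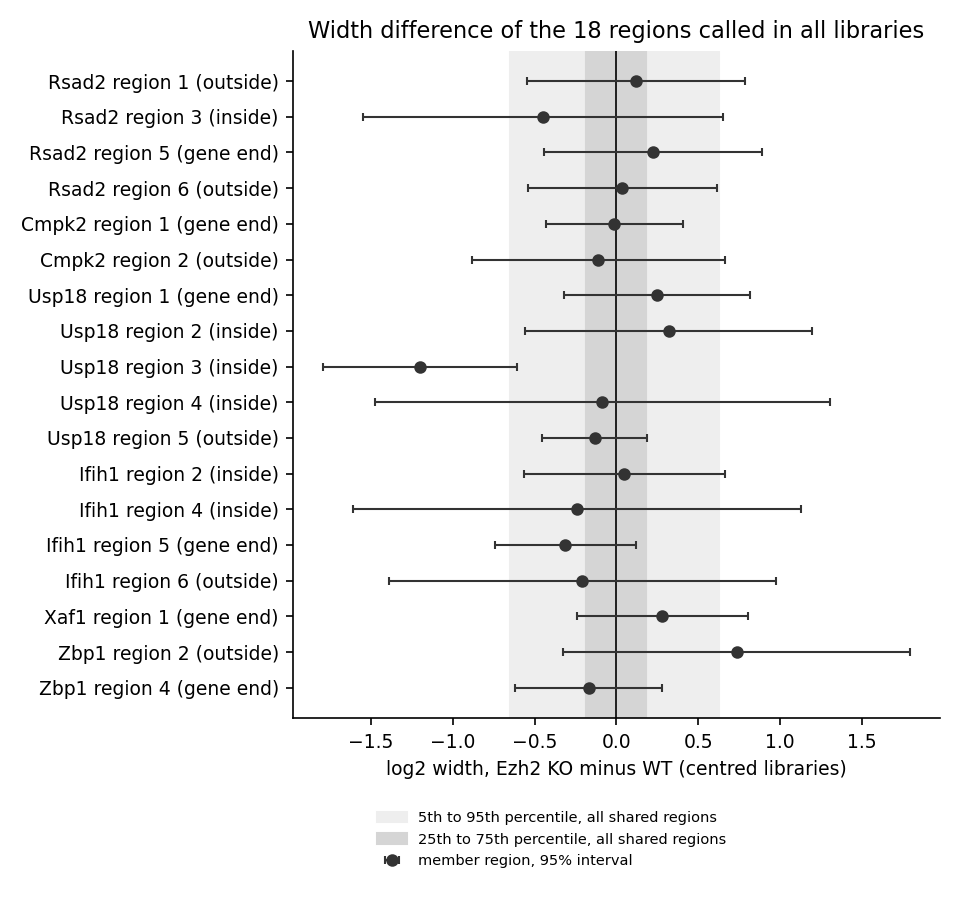
Points give the difference in log2 width between Ezh2 KO and WT (positive, broader in KO) for the 18 regions called in all 4 libraries, with 95% intervals from limma, and grey bands give the 5th to 95th and 25th to 75th percentiles of the same value over all shared regions. The interval of 1 region, inside Usp18, leaves out 0, and its adjusted p is 0.620.

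Summed over the regions of a gene and not centred, the peak-covered length overlapped between genotypes except at Ifih1 and Xaf1. Usp18 had the most, at 2468 and 2246 bp in KO and 2597 and 2207 bp in WT. Rsad2 had 1671 and 1913 bp in KO and 1885 and 1868 bp in WT. Zbp1 had 1398 and 2241 bp in KO and 1760 and 1837 bp in WT. These 3 genes stood between percentiles 70.1 and 80.1 of the mean over all tested genes.

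Ifih1 had 1627 and 1500 bp in KO and 1788 and 2205 bp in WT. It was the only gene of the 7 with both KO libraries below both WT libraries, which held for 17.1% of all tested genes. Cmpk2 had 911 and 977 bp in KO and 1450 and 874 bp in WT, where the high WT value holds a region 44973 bp from the gene that only WT replicate 1 called. Xaf1 had 748 and 599 bp in KO and 569 and 542 bp in WT. It was the only one of the 7 with both KO libraries above both WT libraries, which held for 14.5% of all tested genes. These lengths were not centred, and after centring the widths of its single region overlapped between genotypes. Ifi44 had the least by the mean, at 122 and 608 bp in KO and 176 and 745 bp in WT, and its replicates differed more than its genotypes. In replicate 2 of each genotype it lay above Xaf1.

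In the order of the means, the ranges over the 4 libraries overlapped between Zbp1 and Rsad2, between Ifih1 and Zbp1 and between Ifi44 and Xaf1. They were separate between Usp18 and Rsad2, between Ifih1 and Cmpk2 and between Cmpk2 and Xaf1. Only neighbours in that order were compared here, and they do not form clean steps. The range of Zbp1 (1398 to 2241 bp) also overlapped those of Usp18 (from 2207 bp) and Cmpk2 (up to 1450 bp). Per kb of gene span the order changed, with 147 bp at Zbp1, 134 at Rsad2, 98.2 at Cmpk2, 95.1 at Usp18, 50.1 at Xaf1, 35.2 at Ifih1 and 21.7 at Ifi44.

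None of the 7 genes passed the test of covered length. With limma on log2 (bp + 100) and adjustment over 15309 genes, 0 were longer and 0 shorter in KO among the 7 and among all genes (0% in both directions), and at an unadjusted p under 0.05 the counts were 0 of 7 and 5.52% of all genes. The log2 difference, KO minus WT, was -0.31 ± 0.16 for Ifih1 (SE, n = 2 each, limma, adjusted p = 0.940) and 0.25 ± 0.22 for Xaf1 (adjusted p = 0.971). For Ifi44 it was -0.27 with an interval from -2.02 to 1.48, too wide to show a difference of either sign. For Rsad2 it was -0.047, with an interval from -0.37 to 0.28. When 1 library at a time was left out, the log2 difference stayed negative for Ifih1 (-0.43 to -0.19) and positive for Xaf1. For Rsad2 it was also negative but small, from -0.092 to -0.0014. For Xaf1 it was 0.044 without KO replicate 1 and 0.46 without KO replicate 2, with limma adjusted p of at least 0.799 whichever library was left out. For Ifih1 the value nearest to 0 was without KO replicate 2. With all libraries the log2 difference was -0.22 for Cmpk2 and already near 0 for Usp18 (-0.0041) and Zbp1 (-0.00036). It changed sign for Cmpk2 without WT replicate 1 (0.16) and for Usp18 without KO replicate 2 (0.13) or WT replicate 1 (0.15). The sign also changed for Ifi44 without KO replicate 1 or WT replicate 2 (0.50 each). For Zbp1 it changed without KO replicate 1 (0.25) or WT replicate 1 (0.0096).

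**Figure D5:**
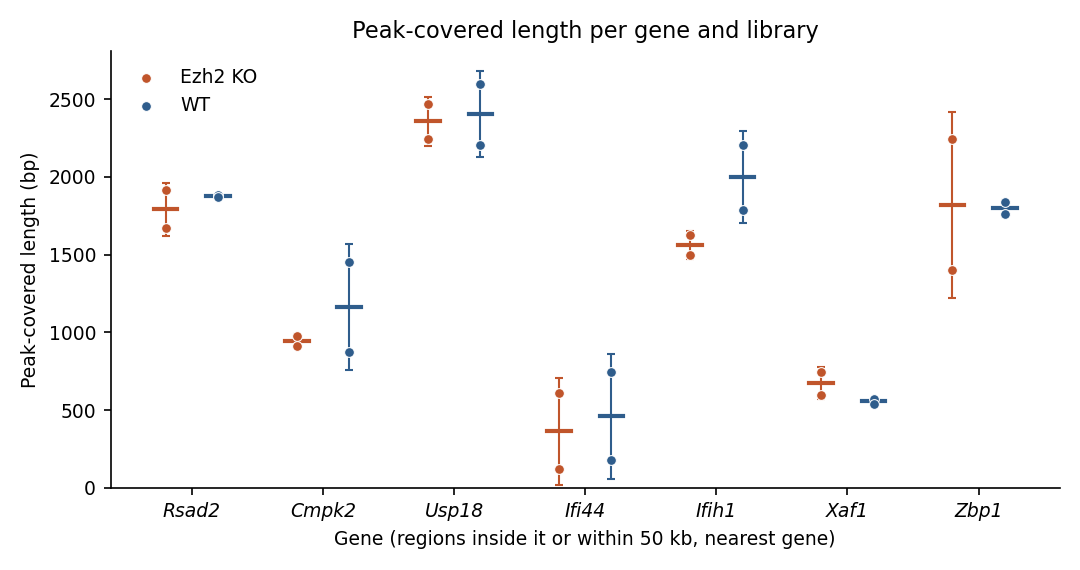
Points give the peak-covered length in bp per gene and library, not centred, with Ezh2 KO (orange) left of WT (blue), and bars give the mean ± SD (n = 2 each). By the mean, Usp18 sits highest and Ifi44 lowest in both genotypes, but in replicate 2 of each genotype Ifi44 lies above Xaf1. The genotypes are apart at Ifih1 (KO lower) and Xaf1 (KO higher) only.

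Other genes of the interferon response gave no call either. Of 49 other interferon-stimulated genes, 48 were tested and 0 passed in either direction, with a median log2 difference of 0.036. Of 24 genes of the sensing and receptor pathway, 23 were tested and 0 passed, with a median of 0.031. The median over the 7 was -0.047, against 0.0033 over all genes tested. At an unadjusted p under 0.05 there was 1 gene in each of these 2 lists.

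The 49 genes had 168 regions, with 4 called in both KO and no WT library (at Ifit2, Ifit3, Oas1a and Samd9l) and 2 in both WT and no KO library (at Isg15 and Samd9l). The pathway genes had 137 regions, with 3 called in KO only (at Ifnar2, Irf1 and Jak1) and 4 in WT only (at Ikbke, Ripk3, Tbk1 and Traf3). Ripk3 encodes the kinase that acts below Zbp1, and Tbk1 and Ikbke encode kinases below MAVS and Ifih1. These shares, 2.38% and 1.19% for the 49 genes and 2.19% and 2.92% for the pathway, stand beside 1.44% and 1.94% of all assigned regions, and no difference was tested. Peaks of these KO-only and WT-only regions stood at percentiles from 1.04 (Isg15, WT replicate 1) to 43.4 (Samd9l, KO replicate 1).

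Among the 49 genes, Dtx3l (3423 and 2536 bp in KO, 3195 and 3237 bp in WT) and Ifitm3 (3000 and 3051 bp in KO, 2773 and 2954 bp in WT) had the longest covered length. Isg15 had the shortest, with no peak in either KO library and 110 and 145 bp in WT. The WT peaks of Isg15 stood at percentiles 1.04 and 5.64, close to the bottom of the lists. Parp9 followed with 205 and 0 bp in KO and 565 and 267 bp in WT. Each region was counted for 1 gene only, so a short covered length does not show that little chromatin near the gene was open. By the distance over the 4 libraries of log2 (bp + 100), the gene of that list most like Rsad2 was Slfn8, and those most like Cmpk2, Usp18, Ifih1, Xaf1 and Zbp1 were Slfn5, Rtp4, Gbp3, Phf11d and Trim30a, at distances from 0.157 to 0.544. The gene nearest to Ifi44, Ifi27l2a, lay at a distance of 1.76.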

How the data were processed

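ATAC-seq libraries of 2 Ezh2 KO and 2 WT macrophage samples, sequenced as paired reads of 150 bp, were grouped by their titles. Per the submitters' processing notes, fastp, Bowtie2, MACS2 and mm10 were used, while versions, read shifting, duplicate removal and the peak filter are not stated there. The authors deposited 1 broad peak list per library, with the start and end of each peak, a score, a fold enrichment (ratio) in the layout of MACS2, and −log10 p and −log10 q. The deposited score and −log10 p were not used, and −log10 q only for an alternative ranking. The lists hold no counts, so depth is unknown and no interval for counting error can be given.

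Regions, percentiles and covered bp were computed with pandas 2.3.3, and tests with limma 3.58.1 (trend on, libraries centred on their median) in R 4.3.3. Width was tested as log2 covered bp over the regions called in all libraries, and genes as log2 (bp + 100) where the mean over the libraries was at least 200 bp. Genes came from the RefSeq table of GRCm38.p6, and 5 of 7 members were in its table of start sites. Ties between genes did not occur for member regions. The members and gene lists were chosen with earlier results of these data known. One listed name, Oas1b, matched the same table entry as Oas1g and was counted once with it. All 7 members were named, with their shared gene-end and inside regions and their strongest region, and of the other lists the genes with KO-only or WT-only regions, the extremes of covered length and the most similar genes. The tests were run on simulated data with 200 changed features. The matches of 1 motif chosen with the design, and the name of 1 marker with a gene-end region, are not reported here.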

Additional observations from a re-analysis of the deposited data

How the results depend on the processing

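No count of regions or genes passing limma's threshold, members included, left 0 under any alternative run, among them the replicate block (paired by replicate number), where it was also 0. The deviations of same-numbered libraries correlated at 0.0105 for region widths and 0.067 for genes, so the numbers were not taken as pairs. With every region within 50 kb counted, whichever gene was nearest, there were 60 regions, 32 of them in all libraries and 1 KO-only. With the weakest 50% of each list left out, 8 regions were in all libraries and 2 were WT-only, and when peaks had to cover at least 50% of a region the counts were 11 and 1. Leaving out 1 library loosens both patterns, which then need 1 call or 1 missing call fewer. It gave 2 WT-only regions each time and 0 KO-only. Shares over all assigned regions under these settings are not given, so these counts have no background beside them. The median log2 width difference was 0.11 for regions of at least 300 bp and ran from -0.092 to 0.14 without 1 library. Ranked by −log10 q, regions with KO percentiles above WT numbered 0 and those below WT 4. Without 1 library they numbered 3 to 7 and 5 to 9, where fewer libraries have to lie apart. Those counts are not comparable with the counts from all libraries. The KO minus WT difference in calls per library, -4.0 as reported, was -6.0 with every region within 50 kb, -3.0 within 10 kb, -2.0 and -5.5 without the weakest 25% and 50%, and -5.0 at 50% coverage. Under these alternatives the calls of the 2 genotypes overlapped only without the weakest 25%. These alternatives for calls per library were chosen after seeing the data. The log2 covered length of Usp18 was 0.063 without the weakest 25%. Without 1 library it ran from -0.16 to 0.15 for Usp18, -0.59 to 0.16 for Cmpk2, -1.03 to 0.50 for Ifi44, -0.25 to 0.25 for Zbp1, 0.044 to 0.46 for Xaf1 and -0.43 to -0.19 for Ifih1, with adjusted p of at least 0.799. A lone library of a genotype was assumed to vary like the other genotype. Ifi44 fell under the length filter without the weakest 25% and gave no value there. The cause of these shifts was not tested. Unknown depth limits every statement on an absent peak.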
